A study of Drosophila melanogaster with 3 samples.

Results

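The genes described here are 10 members of the Hippo growth control pathway, namely hpo, wts, kibra, ex, ft, ds, fj, yki, sd and Diap1, out of 13945 protein-coding genes on the chromosome arms studied. They were chosen by name. For each gene, CoRest binding was read from the annotated span plus 10 kb on each side. CoRest is a corepressor that holds together chromatin enzymes, among them the demethylase Su(var)3-3 and a histone deacetylase. It was mapped by chromatin immunoprecipitation followed by sequencing (ChIP-seq) with an antibody against green fluorescent protein (GFP). The samples were 3 biological replicates of whole Drosophila melanogaster embryos, males and females pooled, aged 0 to 24 hours, from 1 transgenic line in which CoRest carried GFP at its C terminus. All belonged to 1 group, and the question was where the tagged protein sat at these genes. Whole embryos of mixed age were used, so the values average over cell types and stages. No expression data were analysed here.

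The Hippo pathway limits organ size. The kinase Hippo (hpo) activates the kinase Warts (wts), which phosphorylates the coactivator Yorkie (yki) and keeps it out of the nucleus. When the kinases are inactive, Yorkie enters the nucleus, joins the DNA-binding protein Scalloped (sd) and drives growth and survival genes such as Diap1, which encodes an inhibitor of caspases. Upstream, Expanded (ex) and Kibra act at the apical cell cortex to promote kinase activity, and their genes are themselves known Yorkie targets in imaginal discs. Fat (ft) and Dachsous (ds) are giant atypical cadherins that bind each other across cell borders. Four-jointed (fj) is a Golgi kinase that phosphorylates their cadherin domains.

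Binding was read from 5 deposited peak lists. The list of each replicate and the list from the pooled replicates held 30000 peaks each. A shorter list of 8721 peaks, which the authors kept for their reproducibility between replicates, is called the thresholded list. The thresholded list was identical to the 8721 strongest peaks of the pooled list, so a thresholded peak has the same rank by deposited peak signal in both, with rank 1 as the strongest. The summit is the position of highest signal that the authors gave within each peak. A promoter summit lay at most 500 bp from the start site of a protein-coding gene, a distal summit lay over 2 kb from any start site, and the others are called intermediate. A thresholded summit counted as found in a replicate when that replicate's list had a summit within 100 bp. Read counts were not analysed here, so the depth is unknown and no interval for counting error is given. Coordinates are 1-based on dm6.

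The sequences at 5 summits are shown because these summits stand for the arrangements described below. They are the promoter summits of kibra, wts and ex, the summit just outside the ds promoter window, and the strongest summit inside Diap1. Each run holds 201 bases of the reference assembly (RefSeq, Release 6), written 5′ to 3′ on the strand of the gene, with the summit at base 101. Capitals mark exact matches to any of the 9 motifs listed further on. None of these runs overlaps an annotated exon.
kibra (chr3R:14724300-14724500, minus strand, summit 139 bp upstream of the start site): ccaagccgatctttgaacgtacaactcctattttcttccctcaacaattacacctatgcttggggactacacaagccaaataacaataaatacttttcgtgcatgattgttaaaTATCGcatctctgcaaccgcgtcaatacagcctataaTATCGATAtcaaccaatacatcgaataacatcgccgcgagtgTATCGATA
wts (chr3R:30806696-30806896, minus strand, summit 177 bp upstream): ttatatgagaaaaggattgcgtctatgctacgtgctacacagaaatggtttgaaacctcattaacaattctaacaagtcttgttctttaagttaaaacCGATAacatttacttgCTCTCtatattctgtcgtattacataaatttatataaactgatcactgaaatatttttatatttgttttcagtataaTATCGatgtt
ex (chr2L:430919-431119, plus strand, summit 208 bp upstream): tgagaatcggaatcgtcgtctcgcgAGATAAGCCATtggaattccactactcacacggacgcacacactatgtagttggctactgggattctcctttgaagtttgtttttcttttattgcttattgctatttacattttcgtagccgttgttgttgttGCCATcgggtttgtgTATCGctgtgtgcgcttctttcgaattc
ds (chr2L:715455-715655, minus strand, summit 572 bp upstream): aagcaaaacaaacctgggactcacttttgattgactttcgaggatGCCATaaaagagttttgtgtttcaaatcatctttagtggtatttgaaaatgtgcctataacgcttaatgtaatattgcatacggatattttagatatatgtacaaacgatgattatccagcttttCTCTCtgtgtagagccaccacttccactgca
Diap1 (chr3L:16046072-16046272, minus strand, intronic summit): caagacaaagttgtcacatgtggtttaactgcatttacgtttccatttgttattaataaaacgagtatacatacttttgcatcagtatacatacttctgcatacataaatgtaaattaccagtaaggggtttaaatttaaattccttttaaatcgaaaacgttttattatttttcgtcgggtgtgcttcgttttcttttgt
The kibra run holds 2 copies of the palindrome TATCGATA, the site of the core promoter factor DREF. The wts run holds 2 matches to CGATA and 1 to GAGAG, and the Diap1 run matches none of the motifs.

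Of the 10 genes, 7 had a thresholded promoter peak: hpo and wts of the kinase core, kibra and ex of the apical regulators, yki and sd of the nuclear effectors, and Diap1 of the targets. The 3 genes without one were ft, ds and fj, which all belong to the Fat and Dachsous branch. Of all protein-coding genes 35.4% had a promoter peak. Most members have 1 annotated start site, but sd has 7 and Diap1 has 5. Among the 8 members with 1 start site, 5 had a promoter peak, against 29.0% of all genes with 1 start site. In the top 8721 peaks of the single replicates, 7 members had a promoter peak in replicate 1, 7 in replicate 2 and 5 in replicate 3, a mean of 63.3% ± 11.5 (SD, n = 3). The same lists gave 36.2% of all genes in replicate 1, 36.6% in replicate 2 and 33.6% in replicate 3. The members lost in replicate 3 were sd and Diap1, whose promoter peaks ranked just past 8721 there. The members were chosen by name with earlier results known, so no test was made of this count.

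**Figure D1:**
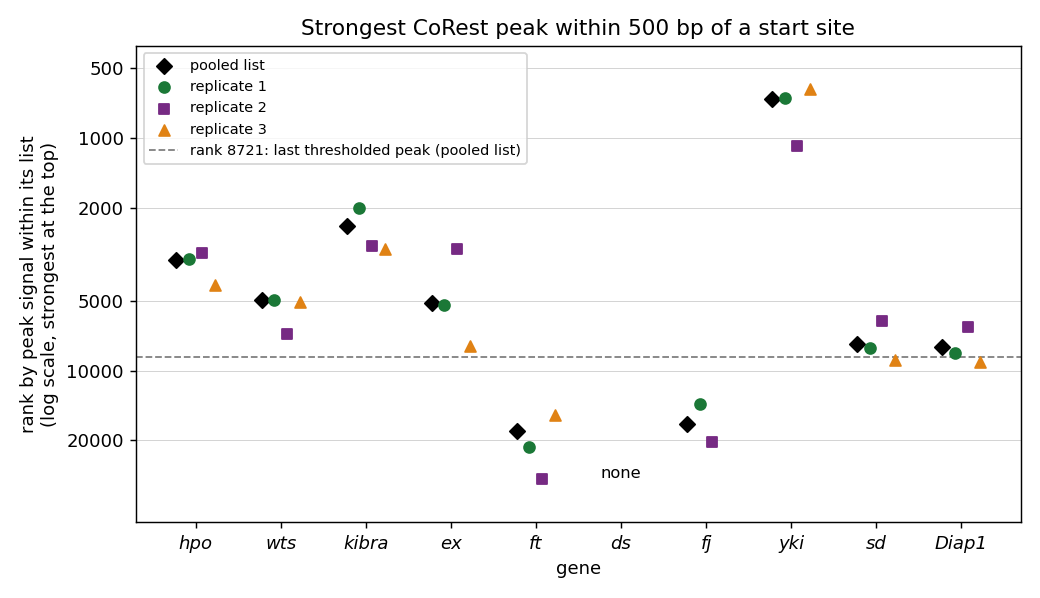
The plot gives, for each gene, the rank of the strongest peak within 500 bp of any of its start sites, for the pooled list and the 3 replicate lists, on a log scale with the strongest at the top. The yki peak stands above the others at pooled rank 674, ft and fj have peaks only below the dashed line at rank 8721, and ds has none in any of the 4 lists.

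The kinase genes hpo and wts had summits close to their start sites. The promoter summit of hpo (FBgn0261456, 2R 19493996 to 19496856, minus strand) lay 31 bp upstream of its start site in the peak at 2R 19496665 to 19497108, at pooled rank 3342. Its ranks were 3299, 3104 and 4283 in replicates 1, 2 and 3, a mean of 3562 ± 632 (SD, n = 3). The promoter summit of wts (FBgn0011739, 3R 30789625 to 30806619, minus strand) lay 177 bp upstream at pooled rank 4982, with ranks of 4969, 6937 and 5074 in the replicates (mean 5660 ± 1107, SD, n = 3). The start site of dj-1beta lies 498 bp from that of wts, and the wts summit was also within 500 bp of it, so the peak could not be assigned to 1 of the genes.

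In the 37.0 kb window of wts there were 11 thresholded summits, 2.97 per 10 kb, and 97.9% of protein-coding genes had a lower density in their windows. Only 4 of the 11 were nearest to the wts start site, while 4 were nearest to cindr and 3 to zfh1. Within the gene, 3 summits were intronic. The strongest of the 3 lay 9114 bp downstream of the start site at pooled rank 1723, with ranks of 2090, 1488 and 1466 in the replicates. The next lay 9751 bp downstream at rank 3799, and the weakest of the 3 lay 2661 bp downstream at rank 6228. All 3 were found in every replicate. Apart from its promoter, hpo had 1 more summit in its window, 5315 bp upstream at rank 7753, whose nearest start site is that of CG16926. Its replicate ranks of 17301, 8067 and 4161 spread widely (SD 6748, n = 3).

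The genes kibra and ex carried both promoter and intronic summits. The kibra promoter summit (FBgn0262127, 3R 14697689 to 14724261, minus strand) lay 139 bp upstream in the peak at 3R 14724178 to 14724621. It had pooled rank 2396 and replicate ranks of 2005, 2911 and 3009 (mean 2642 ± 554, SD, n = 3). Within the gene there were 6 summits, all intronic and all distal. The strongest of them were 2152 bp downstream at rank 2922 and 9506 bp downstream at rank 3033. The summit at 9506 bp had ranks of 1581, 7660 and 7868 in replicates 1, 2 and 3, and the summit at 2152 bp had ranks of 4737, 2040 and 2224. Replicate 1 thus ranked the first of these highest and the other lowest. The weakest, 12545 bp downstream at rank 8616, was found in replicates 1 and 3. The kibra window held 11 summits, 6 of them nearest to kibra, or 2.36 per 10 kb in all, and 93.2% of genes had a lower density.

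The ex promoter summit (FBgn0004583, 2L 431227 to 448701, plus strand) lay 208 bp upstream at pooled rank 5093, with replicate ranks of 5198, 3001 and 7832 (mean 5344 ± 2419, SD, n = 3). A further summit, 1009 bp upstream at rank 5049, was steadier, with ranks of 5213, 4700 and 5481 (mean 5131 ± 397, SD, n = 3). Both upstream summits were found in every replicate. The intronic summits lay 9855 and 10894 bp downstream of the start site. The stronger, at rank 2101 and 10894 bp, had ranks of 1723, 2383 and 3195. The other, at rank 3890, had ranks of 1962 and 14312 in replicates 1 and 2 and was not found in replicate 3. The gene crq overlaps ex, and its start site was the nearest coding start site to the summit at rank 2101.

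The thresholded summits nearest to ft, ds and fj all lay outside their promoter windows. The nearest thresholded summit to the start site of ds (FBgn0284247, 2L 640013 to 714983, minus strand) lay 572 bp upstream, just past the promoter limit, in the peak at 2L 715423 to 715698. It was the strongest summit nearest to ft, ds or fj, at pooled rank 1427, and its replicates differed little, with ranks of 1504, 1242 and 1521 (mean 1422 ± 156, SD, n = 3). A second ds summit lay 3672 bp upstream at rank 4866, with ranks of 7005, 3543 and 4055. The nearest summit to the ft start site (FBgn0001075, 2L 4198404 to 4221796, minus strand) lay 1327 bp upstream at pooled rank 2171, with ranks of 1641, 3282 and 3085 (mean 2669 ± 896, SD, n = 3). Another lay 2545 bp upstream of ft at rank 6791. The gene fj (FBgn0000658, 2R 18232761 to 18236311, plus strand) had 1 summit in its window, 9394 bp downstream of its start site and beyond the end of the gene, at rank 3712. Its replicate ranks were 2327, 7230 and 7997 (mean 5851 ± 3076, SD, n = 3), so replicate 1 ranked it far higher than the others.

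The bodies of these 3 genes held no thresholded summit, although ds spans 75.0 kb and ft 23.4 kb. The stretch without a thresholded summit that contains ds ran over 113 kb, from 2L 602540 to 715555. Of the 8715 intervals between neighbouring thresholded summits, 1.45% were at least as long, and the median interval was 5.54 kb. An interval that holds a gene of 75.0 kb without a summit must be long, so this share does not show that the stretch is unusual. Of the 153 protein-coding genes at least as long as ds, 39 (25.5%) had none in their span. For genes at least as long as ft the share was 32.3% (281 of 871). Of all protein-coding genes, most of them short, 83.3% had none in their span.

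Weaker peaks of the pooled list were present in the same places. At ft, peaks lay 297 bp downstream of the start site at pooled rank 18251, 23 bp downstream at rank 22687 and 534 bp upstream at rank 12680. The peak 534 bp upstream was found in all 3 replicates, at ranks 9969, 18554 and 16298, and the peaks 297 and 23 bp downstream in 2 replicates each. At fj, a peak 140 bp downstream of the start site had pooled rank 16979 and was found at ranks 13986 and 20232 in replicates 1 and 2. Inside ds there were 5 pooled peaks, the strongest 31724 bp downstream at rank 10594, and the pooled list had none within 500 bp of the ds start site. With all 30000 pooled peaks, 9 of the 10 genes had a promoter peak, against 51.8% of all genes.

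The strongest promoter peak of the 10 genes was that of yki (FBgn0034970, 2R 24065975 to 24068485, minus strand). It had pooled rank 674 and ranks of 671, 1074 and 614 in the replicates (mean 786 ± 251, SD, n = 3), and its summit lay 312 bp upstream of the yki start site, in the peak at 2R 24068496 to 24069012. The gene Gpat4 is transcribed away from yki on the other strand, with a start site 272 bp from that of yki. The summit lay 40 bp inside Gpat4, in its 5′ untranslated region, so it was closer to the Gpat4 start site than to that of yki. With a promoter window of 250 bp, yki no longer counted as bound. There was no thresholded summit inside yki, as for 4187 of the 6158 protein-coding genes at least as long (68.0%).

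The partner gene sd (FBgn0003345, X 15804370 to 15827682, plus strand) had a weaker and likewise shared promoter peak. Its summit lay 374 bp upstream of the first sd start site and 116 bp upstream of PGRP-LE, at pooled rank 7660 with replicate ranks of 8033, 6829 and 8977 (mean 7946 ± 1077, SD, n = 3). This summit too was lost with a promoter window of 250 bp. In replicate 2 the strongest peak within 500 bp of an sd start site was another, 326 bp downstream at rank 6096. The span of sd, 23.3 kb long and with 7 start sites, held no thresholded summit, and the pooled list gave 9 weaker peaks there. Of the 873 protein-coding genes at least as long as sd, 282 (32.3%) had no thresholded summit in their span.

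Diap1 (FBgn0260635, 3L 16038410 to 16051034, minus strand) had 5 intronic summits in 12.6 kb, more per length of gene than any other member. The strongest, in the peak at 3L 16045783 to 16046372, lay 674 bp downstream of the nearest of its 5 start sites at pooled rank 443. Its replicate ranks were 410, 474 and 497 (mean 460 ± 45.1, SD, n = 3), and it was the strongest of the 24 summits whose nearest coding start site was that of a member. The only summit of Diap1 that counted as a promoter peak ranked far lower, 242 bp downstream of a start site at pooled rank 7948, with ranks of 8412, 6498 and 9212. The other 3 ranked 3270, 4882 and 4931, and their replicate ranks ran from 2095 to 7222. All 5 were found in every replicate. The Diap1 window held 7 summits, 5 of them nearest to Diap1, or 2.15 per 10 kb in all, and 89.8% of genes had a lower density.

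**Figure D2:**
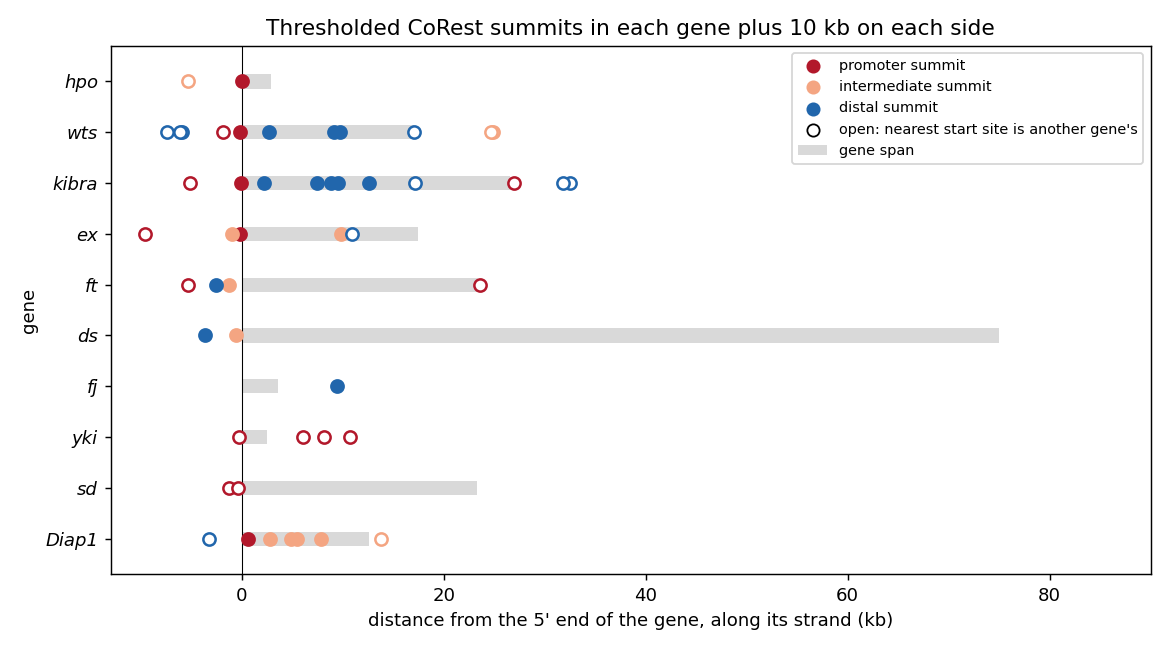
The map places the 49 thresholded summits by their distance from the 5′ end of each gene, in kb along its strand, with the gene span as a grey bar. Summits lie inside the bars of wts, kibra, ex and Diap1 and in none of the other 6, and open symbols mark summits whose nearest coding start site is that of another gene.

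In all, the windows of the 10 genes held 49 thresholded summits in 404 kb, and each gene had at least 1, as did 78.7% of protein-coding genes. Promoter summits, neighbours included, made up 17 of the 49 (34.7%), against 47.5% of all thresholded summits. Intermediate summits made up 12 (24.5%), against 22.6%, and distal summits 20 (40.8%), against 29.9%. At least 1 distal summit lay in the windows of 7 members, against 20.4% of genes, and in 5 of these 7 it was nearest to the member itself. The members are long genes, with a median span of 17.2 kb against 2.17 kb for all protein-coding genes, and their windows are longer for that reason. Per length, the windows held 1.21 summits per 10 kb, against 0.651 over the 6 chromosome arms, which include sequence outside gene windows. The median over the windows of single protein-coding genes was 0.886. It is not a like measure, since the 1.21 pools all 10 windows. Of the 49 summits, 24 were nearest to the start site of a member and the others to those of neighbours. The 24 alone came to 0.594 per 10 kb of the full window length, neighbours' parts included. The value over the arms counts every summit, so it is not a like measure for the 24. Whether the higher density holds for the members without their neighbours cannot be told from this value. The spans alone held 0.783 per 10 kb. Density differed widely among the members: it was below 0.5 per 10 kb for ds (0.211), fj (0.425) and sd (0.462) and above 2 for Diap1, kibra and wts. Of protein-coding genes, 22.0% had a lower density than ds, 27.5% than fj, 33.3% than sd and 49.3% than hpo. The share was 53.6% for ft, 68.3% for ex and 81.5% for yki.

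All 3 replicates held 44 of the 49 (89.8%), against 88.0% of all thresholded summits, and the other 5 were found in 1 or 2 replicates. The coefficient of variation of the replicate ranks had a median of 23.1%, against 25.8% over all thresholded summits. The median over summits of the largest shift of a replicate's summit from the pooled one was 33 bp in both sets. Of the 7 promoter peaks, 6 had their summit upstream of the member's start site, the exception being Diap1. Measured from the nearest coding start site of any gene, 5 of the 7 were upstream, since the yki summit lies inside Gpat4, against 86.1% of all promoter summits. The GC content within 100 bp of the summits had a median of 34.3%, against 33.3% over all thresholded summits, and ranged from 18.4% at the kibra summit of rank 3033 to 50.7% at the zfh1 summit of rank 3348 in the wts window.

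The windows of 201 bp were searched on both strands for exact matches to 9 motifs. GGAATG, the core of the site bound by Scalloped and its vertebrate relatives, was present at 3 summits (6.12%), against 6.52% of all 8721. These 3 lay at the promoters of neighbours of yki and in the wts window, and none of the 7 promoter summits of the members had a match. GAGAG, bound by the GAGA factor, was present at 9 (18.4%), against 18.9%, among them the promoter summits of wts and Diap1. TATCGATA, the DREF site, was present at 3 (6.12%), against 4.72%, and among the members' own promoter summits in that of kibra. CGATA, bound by the boundary factor BEAF-32 and contained in the DREF site, was present at 17 (34.7%), against 29.7%. Many of these summits were nearest to the start sites of neighbours: eEF5, RpL12, RpL39, CG16926, PGRP-LE, Naprt, CG3702, Meltrin and CG7530. Among summits nearest to a member, only those of wts, ex and kibra had a match, so the gap cannot be credited to the members. GCCAT, the core of the site of the Polycomb recruiter Pleiohomeotic, was present at 13 (26.5%), against 25.4%. AGATAA, the site of GATA factors, was present at 7 (14.3%), against 14.6%. CACCTG, the site of the repressor Snail, was present at 2 (4.08%), against 4.61%, one of them the hpo promoter. GGTCACACT, bound by M1BP, and CAGGTAG, bound by Zelda, were present at 1 summit each (2.04%), against 2.59% and 0.757%. The Zelda match lay at the kibra intronic summit of rank 3981. The gap for BEAF-32 depended on the window: with 200 bp on each side of the summit, 32 of the 49 windows (65.3%) held CGATA, against 47.0% of all.

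**Figure D3:**
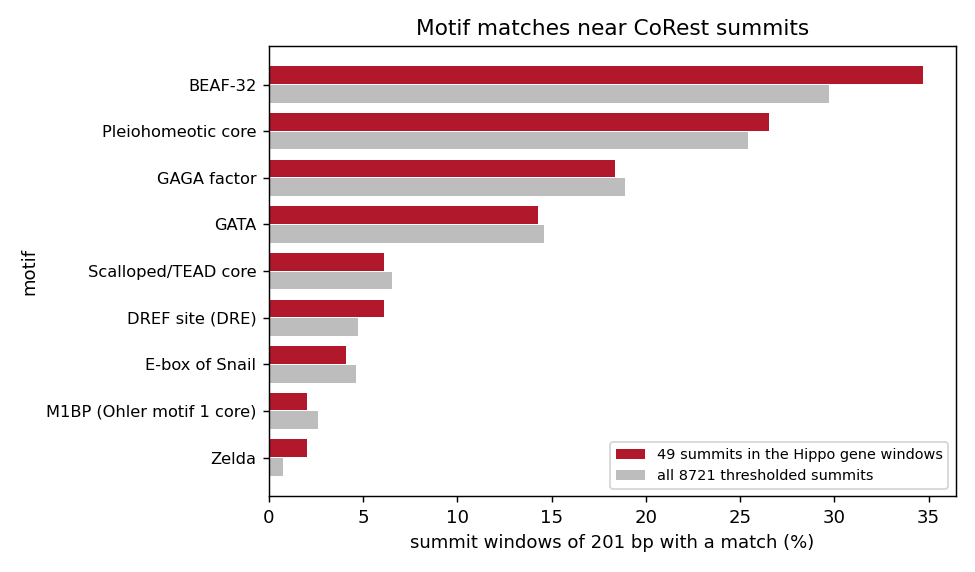
The bars give the share of 201-bp summit windows with at least 1 match to each motif, for the 49 summits of the Hippo gene windows in red and all 8721 thresholded summits in grey. The largest gap between the 2 bars is that of BEAF-32, 34.7% against 29.7%. The red bars include summits nearest to the start sites of neighbours, where many of the BEAF-32 matches lie.

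Of 38 further genes of a list of kinases, adaptors, junction proteins and cofactors, 25 (65.8%) had a thresholded promoter peak, with 67.5% ± 8.46 (SD, n = 3) in the strongest peaks of the replicates and 35.5% ± 1.63 of all genes. With the 10 included, the kinase core had a peak at 3 of 4 genes, with sav at rank 4126 and mats unbound. The Fat branch had one at 4 of 9, the apical and junction regulators at 10 of 14, the inhibitors of the kinases at 5 of 7, the nuclear effectors at 8 of 10 and the target genes at 5 of 8. Some genes stand in more than 1 of these groups. In the Fat branch the bound genes were all outside the 10: app, a palmitoyltransferase, dco, a casein kinase, Dlish and lft. The unbound ones were ft, ds, fj, dachs, which encodes an unconventional myosin, and Fbxl7.

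The strongest promoter peak among the further genes was that of app at pooled rank 741, with replicate ranks of 752 ± 45.3 (mean ± SD, n = 3). Next came nej, the histone acetyltransferase CBP, at rank 1156 (replicates 1121 ± 105, SD, n = 3). Merlin (Mer), the cortical partner of Expanded, followed at rank 1660 (replicates 1735 ± 114, SD, n = 3). Strip, a scaffold of a phosphatase complex that acts on Hippo, had rank 1820, and E2f1, a cell cycle target, rank 2475. Tgi, a Scalloped corepressor, dco and the kinase gene Hipk had ranks 2944, 3070 and 3079. Besides mats, dachs and Fbxl7, the unbound genes were Cka, CycE, Magi, Myc, Patj, Sik2, Wbp2, jub, kst and tsh. Among these, Myc had 8 thresholded summits in its window, 7 of them distal, and mats had none.

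For other signalling pathways, Wnt pathway genes had a promoter peak at 12 of 21 (57.1%; replicates 58.7% ± 2.75), JAK/STAT genes at 6 of 11 (54.5%; replicates 51.5% ± 10.5) and Notch pathway genes at 8 of 16 (50%; replicates 54.2% ± 3.61), all SD with n = 3. No test was made of the difference between the pathways. Median spans were 10.1 kb for the 38 further Hippo genes and 12.4, 7.17 and 13.1 kb for the Wnt, JAK/STAT and Notch genes.

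**Figure D4:**
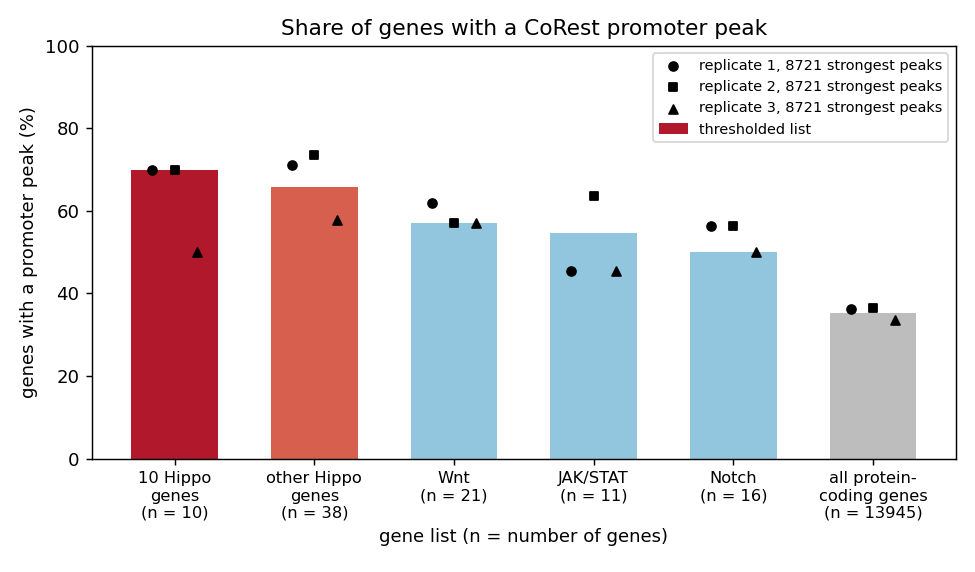
The bars give the percent of genes in each list with a thresholded promoter peak, and the points give the same for the 8721 strongest peaks of each replicate. The 10 Hippo genes stand at 70% with replicate points between 50% and 70%, the other pathways at 50 to 57.1% and all protein-coding genes at 35.4%.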

How the data were processed

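Peaks were called by the authors per replicate and on the pooled replicates, each with the same 1 control file, and a list thresholded on reproducibility was derived from those on dm6, per the deposited file listings. For the caller, aligner, threshold and depth, the sources used here give nothing. The deposited peak signal has no stated scale, so it served for ranks inside 1 list. Sonicated fragments had a size range of 200 to 800 bp, per the labels.

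Gene models were those of Ensembl 115, and bases were read from RefSeq's Release 6 assembly. No thresholded peak ended beyond its chromosome arm. Summits were the peak start plus the deposited offset. Shares are described beside those of all genes or summits, with mean ± SD over 3 replicates, and no test was made. The labels give each replicate its own biosample of 1 line. The members, lists and motifs were chosen with earlier results of these data known, so they give no independent support. All 10 members are named, with the 8 further genes of best promoter rank and those unbound. Symbols d, Dl, riq and nct matched through synonyms (4 in all). Alternatives were other windows, flanks, peak numbers and match distances, and the thresholded summits found in both other replicates when 1 was set aside. Distance and matching functions were tested on simulated summits. Python 3.11.15, pandas 2.3.3, numpy 2.4.6 and matplotlib 3.10.9 were used.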

Additional observations from a re-analysis of the deposited data

How the results depend on the processing

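For each replicate in turn, only the thresholded summits found in both other replicates were kept. The thresholded list was made with all 3 replicates, so these counts could not rise. Members with a promoter peak numbered 7 each time, because all 7 of their promoter summits were found in all 3 replicates. The summits in their windows numbered 44 to 46 and the distal ones 17 to 18. Bound pathway genes numbered 30 to 32 and all bound genes 4532 to 4651. A promoter window of 250 bp gave 5 members, against 29.0% of all genes, and one of 1000 bp gave 8, against 39.3%. Counts of summits follow the window and the number of peaks. Without flanks the gene spans held 16 summits, 10 of them distal, or 0.783 per 10 kb. Counting only summits nearest to the member left 24, 11 of them distal, or 0.594 per 10 kb of the full windows. The 0.651 over the chromosome arms counts every summit and is not a like measure for these. With distal set at over 5000 bp, 8 were distal. The stronger 4360 thresholded peaks gave 3 of the 10 members with a promoter peak (yki, hpo and kibra), against 21.8% of all genes (3037). They gave 20 of the 48 pathway genes. In the windows they left 25 summits, 9 distal ones, 24 found in all replicates and 0.618 per 10 kb. The 17442 strongest pooled peaks gave 8 members with a promoter peak, against 45.8% of all genes. Their windows then held 99 summits, 43 distal ones, 67 found in all replicates and 2.45 per 10 kb. With 50 bp on each side, motifs were present at 4 summits for GAGA factor (8.16%, against 8.9% of all), 1 for DREF (2.04%, against 2.58%), 6 for Pleiohomeotic (12.2%, against 13.6%), 1 for Snail (2.04%, against 2.13%) and 3 for GATA (6.12%, against 7.89%). Scalloped was present at 3 there (6.12%, against 3.1%) and BEAF-32 at 12 (24.5%, against 17.0%). M1BP and Zelda were present at 1 summit each there (2.04%), against 1.2% and 0.355%. With 200 bp, Scalloped was present at 9 (18.4%, against 13.5%) and GAGA factor at 18 (36.7%, against 39.7%). DREF was present at 6 (12.2%, against 7.53%) and BEAF-32 at 32 (65.3%, against 47.0%). M1BP was then present at 2 (4.08%, against 4.93%), Zelda at 2 (4.08%, against 1.75%), Pleiohomeotic at 22 (44.9%, against 48.5%) and GATA at 11 (22.4%, against 24.5%). Snail was present at 3 with 200 bp (6.12%, against 9.69%). More bases or peaks were examined under some settings and fewer under others, for the members and for all genes or summits alike. Why the gap to all summits changed for some motifs was not tested. No paired analysis was possible because all samples belong to 1 group. Without input, accessibility or read counts, a missing peak does not show missing binding.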

Other observations

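Of the 17 promoter summits in the windows, 10 lay at neighbours and not at a member. Downstream of yki the 3 other summits of its window all lay within 67 bp upstream of genes of the translation machinery: eEF5 at rank 3540, RpL12 at rank 5060 and RpL39 at rank 6794. All 3 were found in every replicate, and the RpL39 summit was the steadiest of them, with replicate ranks of 6932 ± 227 (mean ± SD, n = 3).

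The strongest summit in any of the 10 windows belonged to none of the members by distance. It lay in an intron of zfh1, which encodes a zinc finger and homeodomain repressor, beyond the 3′ end of wts, at pooled rank 350 with ranks of 295, 423 and 490 in the replicates. A further summit in the same zfh1 intron had rank 3348, and its peak overlaps that of rank 350. On the other side of wts, cindr, an adaptor protein gene, had a promoter summit at rank 2100 (replicates 2153 ± 204, SD, n = 3) and 3 intronic summits. Of the intronic ones, that at rank 1965 was found in every replicate. The summit at rank 4731 was found in replicates 1 and 2, and that at rank 7100 in replicate 3 only. The peaks at ranks 4731 and 7100 overlap.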
